A study of Homo sapiens with 8 samples.

Results

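WNT pathway genes were followed in the ERBB2-amplified (HER2-positive) human breast cancer line SKBR3, with and without knockdown of the pioneer transcription factor FOXA1. The genes were taken from the deposited count table by their symbols: the numbered WNT, FZD, DVL, DKK, SFRP, AXIN and LGR families together with LRP5, LRP6, PORCN, WLS, RNF43, ZNRF3, APC, APC2, TCF7L1, TCF7L2, LEF1, NKD1, NKD2, NOTUM, KREMEN1, KREMEN2 and WIF1. This gave 53 rows for 52 symbols among the 30434 genes of the table. No row carried the symbols DKK2, DKK4, SFRP2, SFRP4, SFRP5, FZD10, LGR5, NKD2 or WIF1, and these 9 were not analysed here. RNF43 had 2 rows, the second (ENSG00000285897.1) for a transcript that runs across it from a neighbouring gene.

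The 4 control libraries came from SKBR3 cells labelled wild type, and the 4 knockdown libraries from a stable SKBR3 line made with lentiviruses that carried 3 short hairpin RNAs against FOXA1. Both groups were grown in medium with 10% serum and were sequenced as paired reads of 101 bp. The labels do not say whether control cells received a virus, whether the hairpins were combined or how many clones the line holds. They also do not say whether replicates were separate cultures, so p-values measure the spread between these libraries, which may be technical.

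WNT proteins are secreted glycoproteins that PORCN lipidates and WLS carries to the cell surface. They bind Frizzled (FZD) receptors, and with the co-receptors LRP5 and LRP6 this recruits Dishevelled (DVL) and stops the complex of AXIN, APC and kinases from marking beta-catenin for destruction, so that beta-catenin can act with TCF/LEF factors in the nucleus. Other WNT proteins, WNT5A among them, are best known for signals that do not run through beta-catenin. Secreted SFRP proteins, members of the DKK family such as DKK1, the deacylase NOTUM and the membrane ligases RNF43 and ZNRF3 restrain the pathway. AXIN2, NOTUM, RNF43, ZNRF3, NKD1, DKK1 and LEF1 are also textbook targets of it. In the mammary gland WNT signals take part in duct branching and stem cell maintenance.

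The targeted gene, FOXA1, had between 4071 and 4397 counts in control libraries and between 83 and 92 in knockdown libraries, which left 2.06% of the control level. Library totals ran from 19087878 to 23786684 counts, and the detection floor of 3 counts was worth 0.123 to 0.153 CPM, where CPM are counts per 1000000 after TMM scaling of each library. All 8 luminal epithelial markers examined were detected in both groups, and their sum ran from 18649 to 20728 CPM in control and from 11961 to 12860 CPM in knockdown. Within this list ERBB2, KRT7 and KRT19 had lower means in knockdown (ERBB2 at 7308 and 1340 CPM), and KRT8, KRT18, ERBB3, EPCAM and TFAP2A higher ones (KRT8 at 4519 and 5619 CPM). Among markers of other cells, COL3A1 went from at most 1 count to between 90 and 104, PDGFRB from between 7 and 12 counts to between 43 and 81, and TP63 from between 2 and 4 counts to between 162 and 191. Others of these lists were lower in knockdown, among them VWF at 5.22 and 0.845 CPM, MYLK at 8.40 and 4.86, ACTA2 at 1.33 and 0.0674, KRT17 at 1.22 and 0.18 and COL1A1 at 5.38 and 4.33. The summed level of the fibroblast list ran from 6.04 to 7.69 CPM in control and from 11.3 to 12.9 CPM in knockdown. LUM had no row, PDGFRA was at 0 in control, DCN had at most 1 count, and 3 of the 9 fibroblast markers exceeded 3 counts in a control library against 4 in a knockdown library. The basal list summed to between 12.1 and 14.8 CPM in control and between 15.6 and 17.8 CPM in knockdown, with 6 of 7 markers over 3 counts in each group. The endothelial list summed to between 20.8 and 22.2 CPM and between 19.9 and 22.4 CPM, most of it CDH5, with KDR at 0 in control. The immune list summed to at most 1.80 CPM, with PTPRC at no more than 3 counts and no row for CD3E or TYROBP. What part these markers' cells had in the values below was not tested, and in bulk RNA fewer cells of a type cannot be told apart from less RNA per cell.

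Of the 53 rows, 46 had enough reads for testing and were fitted with the whole table of 16430 genes by edgeR's quasi-likelihood test. An adjusted p under 0.05 was reached by 27 members that were higher and 14 that were lower in knockdown, together 89.1% of those tested, where the test called 77.1% of all genes tested (39.4% higher and 37.7% lower). The change was 2-fold or more for 18 higher and 7 lower members, or 54.3%, against 28.3% of all genes. Since most genes passed the test, the size of each change is given with its call. For 15 members every library of only 1 group reached the filter's count level, 11 in knockdown and 4 in control. A member with no such library in the other group had to differ once it passed, so its adjusted p below is no separate support for a difference. On the knockdown side these were WNT3A, WNT7A, WNT8B, WNT10A, WNT10B, FZD8, SFRP1, DKK3 and AXIN2. On the control side they were WNT5A, WNT5B and DKK1. WNT11, APC2 and RNF43 each had 2 libraries at that level in the other group. Of the other 31, which passed in every library of both groups, 26 were called, 16 higher and 10 lower (83.9%, against 77.8% of the genes that passed in this way, 38.2% higher and 39.6% lower) and 10 changed 2-fold or more (32.3%, against 20.1%). Groups did not overlap for 39 of the 46 (84.8%, against 72% of all genes), each with a two-sided exact permutation p = 0.0286, the lowest value that groups of 4 and 4 allow. These 39 include all 15 members that passed in only 1 group. Where such a member had no library at the filter's level in the other group, the filter itself set the groups apart.

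**Figure D1:**
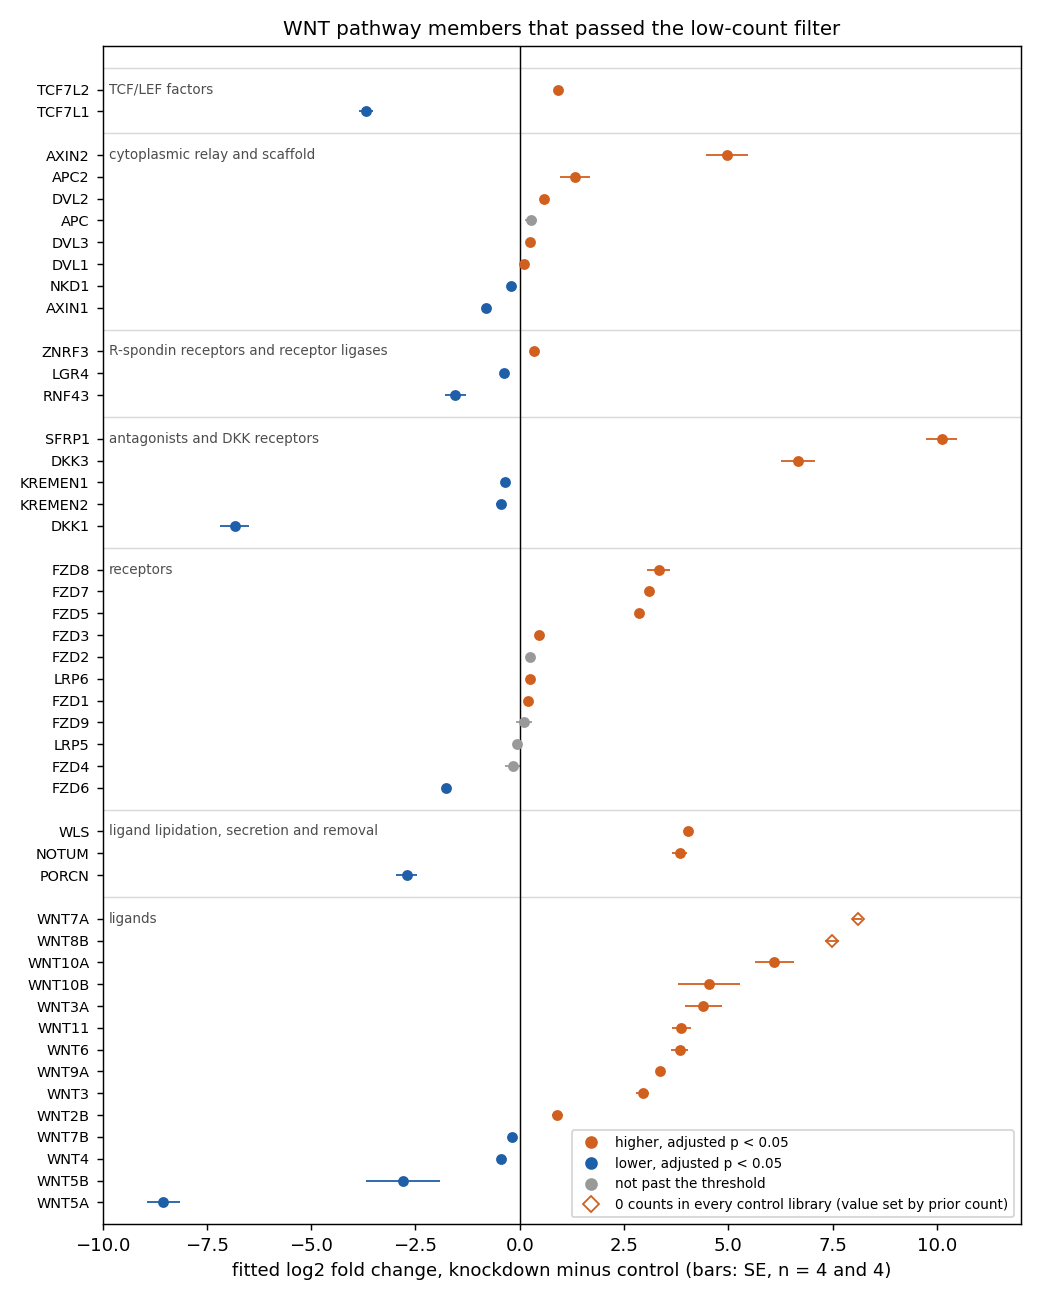
Fitted log2 fold change (knockdown minus control) of the 46 tested members, grouped by role, with bars for the standard error over 4 and 4 libraries. Orange points were higher and blue points lower at an adjusted p under 0.05, grey points were not past it. Ligands run from WNT5A at -8.54 to WNT7A, one of the hollow diamonds whose value is set by the prior count because every control library had 0 counts, while most receptor and relay genes lie near 0.

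Promoter sequences are shown for 4 of the members whose level changed 2-fold or more, to let the reader see what lies before their starts. RefSeq windows (GRCh38.p14) of 300 bases, 250 before and 50 after each start, were found for 36 of the 52 symbols, 48 windows in all. They were searched on both strands for the forkhead core TGTTTAC and the TCF/LEF core CTTTGAT, which do not overlap each other. The forkhead core was in 1 of the 48 windows, that of the ligand gene WNT5B, and in 3.42% of all 35116 windows. The TCF/LEF core was in none of the 48 windows and in 2.62% of all windows. The other 16 symbols, AXIN2, SFRP1 and WNT7B among them, had no window and were not searched. A match describes letters only, and its absence says only that these letters are not in the window. The site in WNT5B, a gene lower in knockdown, is shown with the match in capitals, 26 bases before the RefSeq start (plus strand, chr12:1617018-1617047). This start is an internal one, since GENCODE 29 places the gene from 1529891 to 1647243. All 250 bases before the start lie in annotated exons, whose gene and strand were not checked.
WNT5B: tcatctcctgccTGTTTACaaaaatgaagc
The 250 bases before the starts of WNT6 (plus strand, chr2:218859555-218859804) and WNT9A (minus strand, chr1:227947933-227948182), a pair of ligand genes higher in knockdown, are followed by those of TCF7L1 (plus strand, chr2:85133142-85133391), which was lower. They have no capitals since neither core occurs in them, and G and C make up 79.2%, 84.4% and 72% of their bases.
WNT6: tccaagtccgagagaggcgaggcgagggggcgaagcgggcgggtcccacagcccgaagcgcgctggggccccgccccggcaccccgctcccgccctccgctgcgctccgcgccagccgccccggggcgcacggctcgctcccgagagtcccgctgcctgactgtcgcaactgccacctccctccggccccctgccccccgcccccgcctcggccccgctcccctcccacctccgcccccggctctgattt
WNT9A: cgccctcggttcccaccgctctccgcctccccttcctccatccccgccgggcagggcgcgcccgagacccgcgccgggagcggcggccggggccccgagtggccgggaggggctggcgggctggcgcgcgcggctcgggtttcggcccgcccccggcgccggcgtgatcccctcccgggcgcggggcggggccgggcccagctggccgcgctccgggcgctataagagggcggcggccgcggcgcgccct
TCF7L1: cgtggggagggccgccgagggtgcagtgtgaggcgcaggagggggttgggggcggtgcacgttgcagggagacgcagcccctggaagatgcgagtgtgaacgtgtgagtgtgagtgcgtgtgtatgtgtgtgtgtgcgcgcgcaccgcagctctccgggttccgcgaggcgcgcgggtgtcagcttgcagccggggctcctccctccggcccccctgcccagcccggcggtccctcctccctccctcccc

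Of 18 WNT ligand rows, 14 were tested, and 10 rose while 4 fell, where 77.1% of all genes tested were called (39.4% higher and 37.7% lower). Of these 14, 8 passed the filter in every library of only 1 group. Of the other 6, 3 changed 2-fold or more (50%, against 20.1% of all genes that passed in both groups). In control cells the ligand reads were mostly WNT7B, with WNT4, WNT5A and WNT9A behind it. In knockdown cells WNT5A was all but undetected, WNT9A had risen about 10-fold towards the level of WNT7B, and WNT6, WNT11, WNT3, WNT10A and WNT10B had risen from low levels.

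WNT9A (ENSG00000143816.8) lies on the minus strand of chromosome 1 from 227918656 to 227947898; positions here and below are those of GENCODE 29 (GRCh38). In order of replicate number, its counts were 150, 152, 135 and 148 in control libraries and 1561, 1655, 1342 and 1505 in knockdown libraries. Every knockdown library lay far above every control library. Its level rose from 6.64 CPM ± 0.284 to 68.0 CPM ± 1.36 (SD, n = 4 per group), a log2 fold change of 3.36 (SE 0.034, edgeR adjusted p = 1.5e-25). WNT3A, the classical beta-catenin ligand, lies 59152 bases away on the opposite strand. It had 0, 1, 0 and 1 counts in control and 15, 16, 9 and 13 in knockdown, a ratio of 26.2 with a 95% counting interval of 6.90 to 222 (edgeR adjusted p = 1.41e-07).

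WNT6 (ENSG00000115596.4, chromosome 2, 218859821 to 218874233, plus strand) and WNT10A (218880363 to 218899581, plus strand) are neighbours 6129 bases apart, and both rose. WNT6 had 14, 23, 24 and 16 counts in control and 308, 296, 245 and 270 in knockdown, with no overlap between groups. The log2 fold change was 3.83 (SE 0.205, edgeR adjusted p = 5.65e-19), from 0.879 CPM ± 0.250 to 12.5 CPM ± 0.401 (SD, n = 4 per group). WNT10A, a ligand of skin and tooth development, had 0, 0, 1 and 1 counts in control and 43, 46, 36 and 48 in knockdown. This ratio was 85.5 with a 95% counting interval of 23.3 to 711 (edgeR adjusted p = 1.17e-12). The 50 tested protein-coding genes nearest to this pair had a median log2 fold change of 0.09, and those around WNT9A and WNT3A of 0.15. Chromosomal neighbours are such protein-coding genes here and below.

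In a further 2 pairs of linked genes only 1 of each was tested. WNT10B (chromosome 12, 48965340 to 48971763), which has been studied in mammary and fat tissue, had 0, 2, 5 and 2 counts in control and 57, 57, 41 and 66 in knockdown. All knockdown libraries lay above all control libraries, with a ratio of 24.3 and a 95% counting interval of 12.6 to 53.8 (edgeR adjusted p = 1.33e-11). Without control replicate 3, which held 5 of the 9 control reads, the log2 fold change of WNT10B went from 4.52 to 5.25. WNT1, the founding member of the family, lies 6689 bases away and had 0 counts in control and at most 1 in knockdown, below the filter. WNT3 (chromosome 17, 46762506 to 46833154, minus strand) had 30, 18, 25 and 26 counts in control and 196, 233, 161 and 185 in knockdown. Its level rose from 1.12 CPM ± 0.231 to 8.66 CPM ± 0.609 (SD, n = 4 per group), a log2 fold change of 2.94 (SE 0.162, edgeR adjusted p = 2.89e-16). WNT9B starts 46 bases from the start of WNT3 on the other strand. It had between 1 and 4 counts in control and between 1 and 6 in knockdown, and was below the filter.

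WNT11 (chromosome 11, 76186325 to 76210736), a ligand best known for signals independent of beta-catenin, had 6, 9, 12 and 11 counts in control and 144, 152, 119 and 156 in knockdown. The groups did not overlap, and the log2 fold change was 3.88 (SE 0.219, edgeR adjusted p = 2.04e-16). WNT7A and WNT8B had 0 counts in every control library, which allows up to 0.142 CPM in the smallest of them. WNT7A had 36, 31, 34 and 36 counts in knockdown, at least 10.9-fold higher than a floor of 3 counts per library. WNT8B had 29, 19, 16 and 25, at least 6.99-fold higher. WNT2B rose from 1.18 CPM ± 0.133 to 2.21 CPM ± 0.281 (SD, n = 4 per group), a log2 fold change of 0.90 (SE 0.123, edgeR adjusted p = 7.37e-05), and shares 2661 of its 12561 exonic bases with ST7L on the other strand, which leaves its counts uncertain.

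Among the ligands that fell, WNT5A changed most. WNT5A (ENSG00000114251.14, chromosome 3, 55465715 to 55490539, minus strand) had 228, 227, 227 and 240 counts in control and 1, 1, 0 and 0 in knockdown. The control libraries were nearly equal, and no knockdown library had more than a single read. It was 467-fold lower with a 95% counting interval of 129 to 3858 (edgeR adjusted p = 1.12e-20). Its paralogue WNT5B had 12, 13, 11 and 15 counts in control and 5, 0, 2 and 0 in knockdown, 7.37-fold lower with a 95% counting interval of 3.33 to 19.3 (edgeR adjusted p = 3.78e-05). Of its 7 knockdown reads 5 were in replicate 1, and without that library the log2 fold change of WNT5B went from -2.80 to -4.01. WNT4, a progesterone-responsive ligand of the mammary gland, fell from 22.2 CPM ± 1.79 to 16.3 CPM ± 0.723 (SD, n = 4 per group), a log2 fold change of -0.44 (SE 0.0666).

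WNT7B (ENSG00000188064.10, chromosome 22, 45920362 to 45977129), the ligand with the most reads, had 2368, 2384, 2589 and 2578 counts in control and 2299, 2445, 1865 and 2204 in knockdown. On the CPM scale the knockdown libraries lay below the control libraries by a small margin, 98.7 CPM ± 3.04 against 113 CPM ± 6.97 (SD, n = 4 per group), with a log2 fold change of -0.19 (SE 0.0488, edgeR adjusted p = 2.72e-04). WNT2 had at most 1 count in control and 3 or 4 in knockdown, and WNT16 at most 2 counts in any library; both were below the filter.

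**Figure D2:**
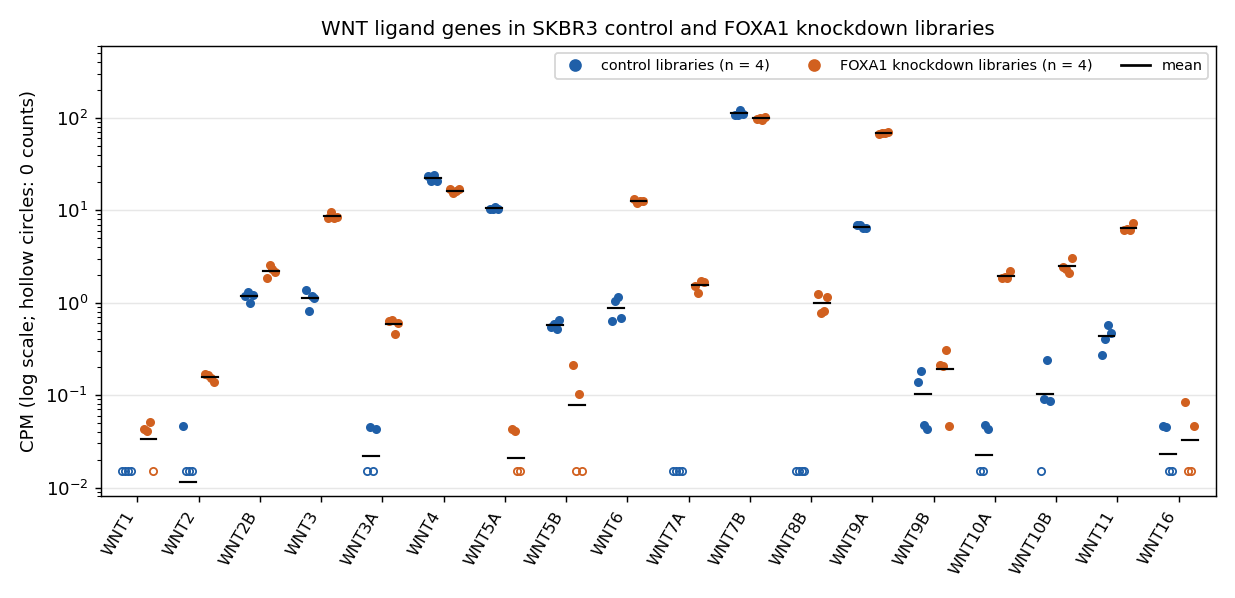
CPM (log axis) of the 18 WNT ligand genes in each of the 4 control (blue) and 4 knockdown (orange) libraries, with black lines for group means and hollow circles for libraries with 0 counts. WNT9A rises from 6.64 to 68.0 CPM beside WNT7B, which has 113 and 98.7 CPM, and WNT5A drops from 10.5 CPM to at most 1 count per library.

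To compare ligands with one another, CPM was divided by the merged exonic length of each gene in kb, which uses all annotated exons and so may overstate the length of the transcript in use. The summed ligand level on this scale was 31.6 CPM per kb ± 1.77 in control and 55.2 CPM per kb ± 1.24 in knockdown (SD, n = 4 per group), a ratio of 1.75 (exact two-sided permutation p = 0.0286). WNT7B made up 70.7% ± 0.882 of the sum in control and 35.4% ± 0.556 in knockdown, while its own level per kb was 22.3 and 19.5. The share of WNT9A went from 5.31% ± 0.448 to 31.1% ± 0.610, and that of WNT6 from 1.63% ± 0.417 to 13.4% ± 0.524 (SD, n = 4 per group). WNT4 went from 15.5% to 6.53% and WNT5A from 4.49% to 0.0051%. The order in control was WNT7B, WNT4, WNT9A and WNT5A, and in knockdown WNT7B, WNT9A, WNT6, WNT4, WNT11 and WNT3. Each step in these orders was larger than the SD of either gene.

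**Figure D3:**
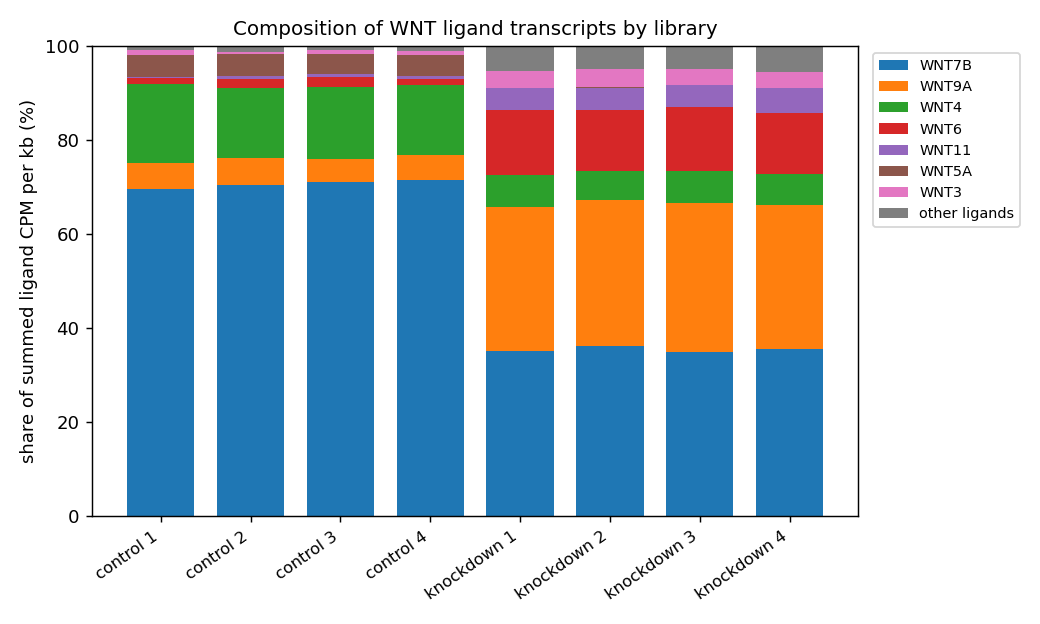
Share of each WNT ligand in the summed ligand CPM per kb (percent, stacked bars from 0 to 100) for the 8 libraries; ligands that stay under 3% in every library are pooled as other ligands. The 4 control bars are alike, with WNT7B at 70.7% on average, and the 4 knockdown bars are alike, with WNT7B at 35.4% and WNT9A at 31.1%.

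The genes that handle WNT proteins during and after secretion each changed by more than 2-fold, in both directions. PORCN (ENSG00000102312.23, chromosome X, 48508962 to 48520814), the enzyme that attaches the lipid needed for secretion and receptor binding, had 99, 110, 117 and 117 counts in control and 19, 11, 16 and 22 in knockdown. Every knockdown library lay below every control library, from 5.03 CPM ± 0.418 to 0.773 CPM ± 0.236 (SD, n = 4 per group), and PORCN fell by 2.71 on the log2 scale (SE 0.252, edgeR adjusted p = 4.38e-13). WLS (ENSG00000116729.14, chromosome 1, 68098473 to 68233120), the carrier that takes lipidated WNT proteins to the surface, had 64, 53, 55 and 50 counts in control and 997, 1020, 751 and 940 in knockdown. It rose from 2.53 CPM ± 0.328 to 41.5 CPM ± 2.27 (SD, n = 4 per group), a log2 fold change of 4.04 (SE 0.101, edgeR adjusted p = 7.07e-24). NOTUM (ENSG00000185269.12, chromosome 17, 81952507 to 81961840), a secreted enzyme that removes the lipid again, had 28, 34, 49 and 40 counts in control and 554, 598, 478 and 563 in knockdown. Its knockdown libraries all exceeded its control libraries, with a log2 fold change of 3.84 (SE 0.18, edgeR adjusted p = 4.21e-21).

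All 11 receptor and co-receptor rows were tested. Of these 6 rose, 1 fell and 4 did not pass the threshold, so that 63.6% were called, against 77.1% of all genes tested. FZD5, FZD7 and FZD8 rose by more than 2-fold, FZD6 fell by more than 2-fold, and the co-receptor genes LRP5 and LRP6 were close to their control levels.

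FZD6 (ENSG00000164930.12, chromosome 8, 103298433 to 103332866), a receptor known for planar cell polarity, had 1259, 1274, 1100 and 1353 counts in control and 392, 388, 330 and 357 in knockdown. The groups were far apart, 56.5 CPM ± 2.86 and 16.5 CPM ± 0.401 (SD, n = 4 per group), with a log2 fold change of -1.78 (SE 0.0415, edgeR adjusted p = 2.18e-20). The 50 nearest tested protein-coding genes had a median of -0.36, and with this shift removed the log2 fold change was -1.42.

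FZD5 (ENSG00000163251.4, chromosome 2, 207762586 to 207769563) had 66, 65, 54 and 75 counts in control and 498, 551, 419 and 456 in knockdown. It rose from 2.94 CPM ± 0.279 to 21.5 CPM ± 0.693 (SD, n = 4 per group), a log2 fold change of 2.87 (SE 0.0731, edgeR adjusted p = 1.76e-20). FZD7, which has been linked to mammary stem cells and lies on the same chromosome (202034587 to 202038445), had 15, 18, 19 and 16 counts in control and 143, 163, 131 and 155 in knockdown. Its log2 fold change of 3.10 (SE 0.106, edgeR adjusted p = 4.77e-16) came with no overlap between groups. FZD8 had 5, 4, 2 and 5 counts in control and 36, 54, 34 and 43 in knockdown, a log2 fold change of 3.33 (SE 0.272). Its chromosomal neighbours had a median of 0.65, and with this shift removed its log2 fold change was 2.69.

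Smaller rises were found for FZD1, from 24.8 CPM ± 0.985 to 28.3 CPM ± 0.786, and FZD3, from 17.5 CPM ± 0.688 to 24.1 CPM ± 0.556 (SD, n = 4 per group). FZD2, FZD4 and FZD9 had log2 fold changes of 0.26 (SE 0.113), -0.17 (SE 0.185) and 0.11 (SE 0.190), and their groups overlapped (edgeR adjusted p-values of 0.153, 0.281 and 0.626). FZD4 shares 1399 of 7383 exonic bases with PRSS23 on the other strand, which leaves its counts uncertain. Per kb of exon, FZD6 led the Frizzled genes in control at 13.9 CPM per kb ± 0.704, ahead of FZD1 at 3.56 ± 0.142. In knockdown FZD1 at 4.06 CPM per kb ± 0.113 and FZD6 at 4.05 ± 0.0987 did not differ beyond their spread, FZD5 followed at 3.21 ± 0.103, and FZD3 at 1.75 ± 0.0403 and FZD7 at 1.72 ± 0.116 again did not differ beyond theirs (SD, n = 4 per group).

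LRP5 (chromosome 11, 68312609 to 68449275), the co-receptor with more reads, had 2889, 2780, 3023 and 2933 counts in control and 2838, 3223, 2431 and 2714 in knockdown. Its groups overlapped on the CPM scale, and the log2 fold change was -0.07 (SE 0.0515, edgeR adjusted p = 0.119). This value turned to 0.011 when libraries were scaled by their totals only, and to 0.45 (edgeR adjusted p = 6.76e-10) with the median of its 50 chromosomal neighbours, -0.52, removed; that alternative was chosen after seeing the data. LRP6 rose from 48.0 CPM ± 4.58 to 56.5 CPM ± 3.74 (SD, n = 4 per group), a log2 fold change of 0.23 (SE 0.0847, edgeR adjusted p = 0.00314).

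Different genes of the secreted antagonist families were expressed in the 2 groups. DKK1, which blocks LRP5 and LRP6, fell to at most 1 count per library, and SFRP1 and DKK3 rose from at most 4 counts. DKK1 (ENSG00000107984.10, chromosome 10, 52314296 to 52318042) had 90, 117, 97 and 89 counts in control and 1, 1, 0 and 1 in knockdown. It was 133-fold lower with a 95% counting interval of 45.0 to 646 (edgeR adjusted p = 3.45e-16), while the 50 tested protein-coding genes nearest to it had a median log2 fold change of 0.56. DKK1 shares 212 of 2206 exonic bases with PRKG1-AS1 on the opposite strand, which averaged 167.25 counts in control and 159.75 in knockdown.

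SFRP1 (ENSG00000104332.12, chromosome 8, 41261958 to 41309497), a decoy that binds WNT proteins outside the cell, had 0, 0, 0 and 1 counts in control and 450, 466, 326 and 435 in knockdown. A single control read stood against 18.7 CPM ± 1.5 (SD, n = 4), a ratio of 1657 with a 95% counting interval of 297 to 65491 (edgeR adjusted p = 1.94e-22). Without control replicate 4, which held that read, SFRP1 was at 0 in control, and its fitted log2 fold change, 11.69 against 10.11 with all libraries, is then set by the prior count. DKK3 (ENSG00000050165.18, chromosome 11, 11963106 to 12009769), a divergent member of the DKK family, had 1, 1, 3 and 4 counts in control and 237, 270, 218 and 255 in knockdown. Its groups did not overlap either, with a log2 fold change of 6.67 (SE 0.407, edgeR adjusted p = 3.38e-20). The DKK receptor gene KREMEN1 had 453, 445, 467 and 460 counts in control and 344, 417, 313 and 365 in knockdown, a small fall of 20.7 CPM ± 1.03 to 16.1 CPM ± 1.12 (SD, n = 4 per group). KREMEN2 fell from 6.15 CPM ± 0.478 to 4.48 CPM ± 0.659 (SD, n = 4 per group), and shares 360 of 2614 exonic bases with the more highly counted PKMYT1 on the opposite strand, so its value is uncertain.

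**Figure D4:**
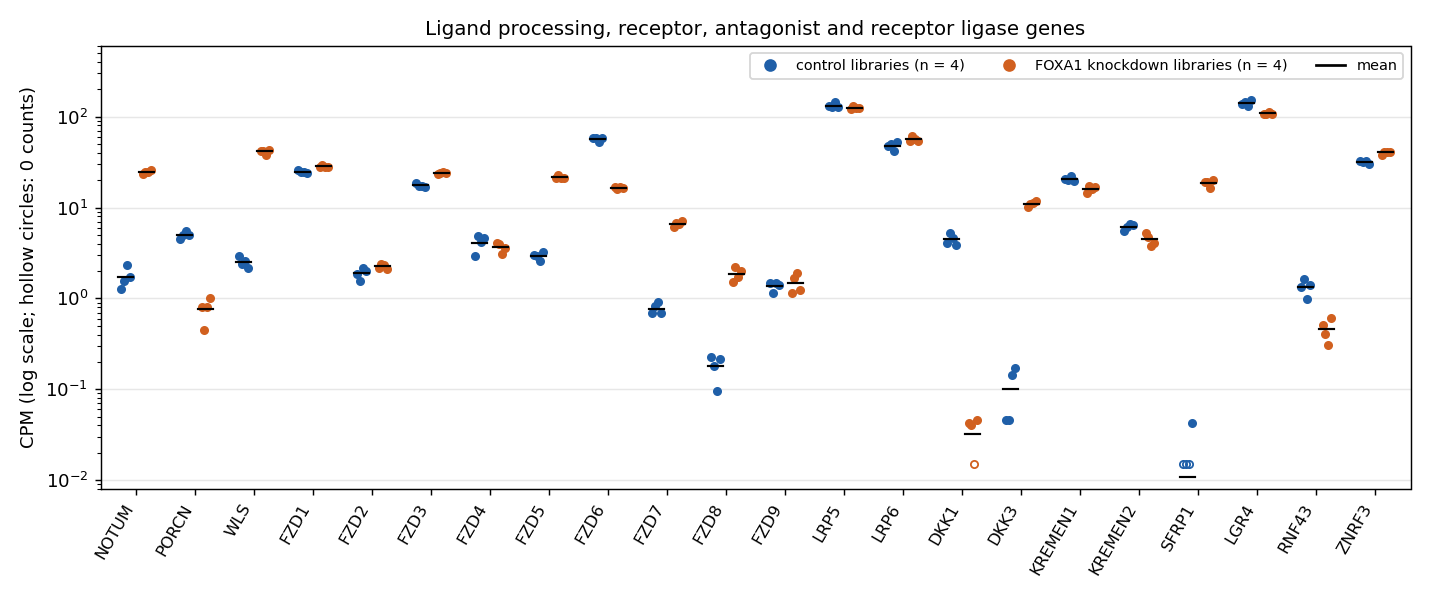
CPM (log axis) of the tested ligand-processing, receptor, antagonist and receptor ligase genes in each control (blue) and knockdown (orange) library, with black lines for means of 4 and hollow circles for 0 counts. WLS, NOTUM, FZD5, FZD7, FZD8, DKK3 and SFRP1 stand higher in all 4 knockdown libraries, PORCN, FZD6, DKK1 and RNF43 lower, and the LRP5 groups overlap.

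At the level of receptor turnover, the R-spondin receptor gene LGR4 (chromosome 11, 27365961 to 27472775) had 3023, 3155, 2731 and 3505 counts in control and 2528, 2610, 2222 and 2338 in knockdown. It fell from 141 CPM ± 8.94 to 109 CPM ± 2.87 (SD, n = 4 per group; log2 fold change -0.37, SE 0.0497, edgeR adjusted p = 1.63e-08). With the median of its chromosomal neighbours, -0.38, removed, the value was 0.0077 and the call was lost (edgeR adjusted p = 0.873). LGR6 had at most 1 count in any library.

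The ligases that clear Frizzled receptors from the membrane went in opposite directions. RNF43 (ENSG00000108375.13, chromosome 17, 58352500 to 58417595) had 29, 36, 21 and 33 counts in control and 12, 10, 6 and 13 in knockdown, with a log2 fold change of -1.54 (SE 0.247, edgeR adjusted p = 8.26e-06). Its reads are uncertain, since it shares 4326 of 7505 exonic bases with the second RNF43 row (at most 7 counts) and 143 with SUPT4H1, both on the same strand. ZNRF3 (chromosome 22, 28883592 to 29057487), the related ligase, rose from 31.8 CPM ± 1.03 to 40.4 CPM ± 1.38 (SD, n = 4 per group), a log2 fold change of 0.34 (SE 0.0343, edgeR adjusted p = 5.22e-07).

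In the cytoplasmic relay the 8 genes were all tested, 5 rose, 2 fell and APC did not pass the threshold. This made 87.5% called, against 77.1% of all genes tested. The largest change was in AXIN2 (ENSG00000168646.13, chromosome 17, 65528563 to 65561647), the scaffold that beta-catenin itself induces, with 4, 1, 2 and 7 counts in control and 96, 121, 106 and 131 in knockdown. AXIN2 was near the detection floor in control and above it in every knockdown library, a log2 fold change of 4.96 (SE 0.502, edgeR adjusted p = 1.01e-14). AXIN1 (chromosome 16, 287440 to 352673), the scaffold present in most cells, fell from 60.8 CPM ± 3.32 to 34.5 CPM ± 2.43 (SD, n = 4 per group; log2 fold change -0.82, SE 0.0643, edgeR adjusted p = 3.76e-13). Per kb of exon AXIN2 remained below AXIN1 in knockdown, at 0.981 against 4.6 CPM per kb.

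The DVL genes, which relay the signal from Frizzled, rose by smaller steps. DVL3, with the most reads, had 2817, 2708, 2697 and 3061 counts in control and 3556, 3718, 2909 and 3370 in knockdown. On the CPM scale its groups did not overlap, 128 CPM ± 3.74 and 152 CPM ± 3.22 (SD, n = 4 per group). DVL2 had a log2 fold change of 0.57 (SE 0.057, edgeR adjusted p = 1.55e-09). DVL1 had one of 0.09 (SE 0.0418) with overlapping groups, and its edgeR adjusted p = 0.04 stayed under 0.05 in 9 of 18 alternatives (range from 1.02e-08 to 0.188).

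APC, the scaffold lost in most colon cancers, went from 31.0 CPM ± 5.43 to 37.6 CPM ± 2.22 (SD, n = 4 per group). Control replicate 3 was the low library at 23.2 CPM, and the log2 fold change of 0.28 (SE 0.144) missed the threshold (edgeR adjusted p = 0.0811). Without that library it was 0.16 and passed (edgeR adjusted p = 0.00839). Its neighbours on chromosome 5 had a median of 0.64, and with that removed the sign turned, to -0.36 (edgeR adjusted p = 0.0328). APC2 rose from 0.360 CPM ± 0.153 to 0.923 CPM ± 0.213 (SD, n = 4 per group). It overlaps AC027307.2, which averaged 14.25 counts in control and 31.5 in knockdown, on the opposite strand, so its value is uncertain. NKD1, a DVL-binding feedback inhibitor, had a log2 fold change of -0.20 (SE 0.0955, edgeR adjusted p = 0.0182), with overlapping groups, and kept the call in 11 of 18 alternatives (adjusted p from 6.03e-04 to 0.16).

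The TCF factors that bring beta-catenin to DNA changed in opposite directions. TCF7L1 (ENSG00000152284.5, chromosome 2, 85133410 to 85310388), known mainly as a repressor, had 516, 518, 572 and 559 counts in control and 58, 34, 37 and 41 in knockdown. All knockdown libraries lay far below the control libraries, and TCF7L1 fell by 3.68 on the log2 scale (SE 0.174, edgeR adjusted p = 2.02e-20), from 24.6 CPM ± 1.73 to 1.91 CPM ± 0.438 (SD, n = 4 per group). TCF7L2 (ENSG00000148737.17, chromosome 10, 112950250 to 113167678) had 472, 443, 456 and 489 counts in control and 959, 980, 779 and 835 in knockdown. It rose from 21.1 CPM ± 0.719 to 39.8 CPM ± 0.898 (SD, n = 4 per group), a log2 fold change of 0.92 (SE 0.0297, edgeR adjusted p = 8.75e-15). Per kb of exon TCF7L1 was the higher of these in control (5.57 against 3.13 CPM per kb) and TCF7L2 in knockdown (5.91 against 0.433). LEF1 had at most 1 count in any library of either group.

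Other genes of the pathway were read from lists that hold no member. Of 32 tested signalling partners, 17 were higher and 13 lower, where 39.4% of all genes tested were higher and 37.7% lower. Their median log2 fold change was 0.15, beside 0.02 for all genes tested. The coactivator gene BCL9 and the corepressor genes TLE4 and TLE2 rose most among those with at least 50 counts on average, by 1.28 (SE 0.051), 1.22 (SE 0.135) and 1.18 (SE 0.0352) on the log2 scale. The R-spondin gene RSPO4 (-2.20, SE 0.143), TMEM59 (-1.77, SE 0.0433) and the syndecan gene SDC1 (-1.75, SE 0.0381) were furthest below. CTNNB1, which encodes beta-catenin and was singled out after its value was seen, rose from 224 CPM ± 6.44 to 306 CPM ± 7.25 (SD, n = 4 per group; log2 fold change 0.45, edgeR adjusted p = 5.07e-12).

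Of 16 tested planar polarity and alternative receptor genes, 8 were higher and 6 lower, with a median of 0.26, against the same shares and median over all genes as for the partners. The WNT co-receptor gene PTK7 rose from 1.9 CPM ± 0.159 to 33.8 CPM ± 0.476 (SD, n = 4 per group), PRICKLE1 by 3.12 (SE 0.170) and ANKRD6 by 1.69 (SE 0.0343) on the log2 scale. DAAM1, a formin activated by Dishevelled, had a log2 fold change of -1.69 (SE 0.0538), PRICKLE2 of -1.02 (SE 0.133) and CELSR2 of -0.90 (SE 0.0436). Of the alternative receptors, ROR1 had a log2 fold change of 1.27 (SE 0.267, edgeR adjusted p = 5.21e-05) and RYK of -0.05 (SE 0.0374, adjusted p of 0.257), while ROR2 was below the filter; these 3 were named after their values were seen.

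Of 14 tested genes that textbooks list as beta-catenin targets and that are not members, 8 were higher and 5 lower, where the test called 77.1% of all genes (39.4% higher and 37.7% lower), and the median was 0.48 beside 0.02 for all genes. EPHB2 rose from 1.05 CPM ± 0.188 to 8.90 CPM ± 0.646, CD44 from 1.70 CPM ± 0.294 to 13.6 CPM ± 0.466 and TBX3 from 12.1 CPM ± 0.849 to 37.5 CPM ± 1.47 (SD, n = 4 per group). EPHB3 fell from 91.2 CPM ± 2.73 to 13.4 CPM ± 0.963, CCND1 from 452 CPM ± 5.05 to 226 CPM ± 6.49 and JUN from 36.9 CPM ± 2.00 to 18.9 CPM ± 1.43 (SD, n = 4 per group). The chromosomal neighbours of CCND1 had a median log2 fold change of -0.52. Among genes with lower counts, singled out after their values were seen, SP5 had 0 counts in every control library and was at least 7.83-fold higher than the floor, and TCF7 rose by 2.19 (SE 0.201), in a region of chromosomal neighbours with a median of 1.09. Among the members that are such targets, AXIN2, NOTUM and ZNRF3 rose, DKK1, RNF43 and NKD1 fell, and LEF1 was not detected above 1 count.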

How the data were processed

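The authors deposited whole read counts per gene for 8 libraries, under Ensembl identifiers with a symbol column; the submitters' processing notes name FastQC, Salmon 1.9, DESeq2 3.16 and hg38. Salmon gives estimates, so the counts may be rounded; the authors' gene annotation and their use of strand in counting are not given in the sources used here. Members and lists were chosen with earlier results of these data known. Genes were kept by filterByExpr (10 counts, total 15), scaled by TMM and tested with edgeR 4.0.16 in R 4.3.3 (robust glmQLFit, glmQLFTest; Benjamini-Hochberg over 16430 genes). Fold changes use a prior count of 0.125; standard errors come from log2 CPM with 0.5 added. Counting intervals and floors cover counting error only. Positions and exonic lengths come from GENCODE 29. Every library is given for members changed 2-fold or more with a mean of at least 20 counts and for the member of each role with the most reads; from each other list, up to 3 genes per direction with at least 50 counts. In a simulation of this comparison, 196 of the 16070 genes that passed the filter were changed, with the same dispersion for all genes. Of these, 96 of 99 changed 2-fold and 97 of 97 changed 4-fold were recovered, with 11 false calls. Since 77.1% of genes were called in the real libraries, the simulation does not show how the test performs with so many changes. Alternatives were other scalings, filters, DESeq2 1.42.0, limma 3.58.1 voom, no robust estimation, a replicate block, leaving out each library and, added later, removal of neighbours' shift.

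No pair of replicates agreed within sampling noise (chi-square per degree of freedom from 2.19 to 6.38), so each library counted once. Pairs with control replicate 3 had the highest values (4.95, 5.62 and 6.38). The other control pairs ran from 2.19 to 2.41 and the knockdown pairs from 2.91 to 4.09. The cause was not tested.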

Additional observations from a re-analysis of the deposited data

Results flagged for a closer look

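With 4 libraries per group, Dixon's test compares the gap between an extreme library and its nearest neighbour with the whole spread of the group. At the 95% critical value, 8 of the 85 member groups with values held such a library; chance alone would give about 4.25. Their causes were not tested. In control, FZD6 was low in replicate 3 (52.2 CPM against 57.7 to 58.3), TCF7L1 was high in replicate 3 (27.2 CPM against 23.5 to 24.1), FZD9 was low in replicate 2 (1.13 CPM against 1.42 to 1.47) and NKD1 was low in replicate 4 (15.2 CPM against 18.7 to 19.5). In knockdown, WNT10A (2.22 CPM against 1.83 to 1.88) and WNT11 (7.22 CPM against 6.06 to 6.23) were high in replicate 4, FZD5 was high in replicate 2 (22.6 CPM against 21.1 to 21.3) and ZNRF3 was low in replicate 1 (38.3 CPM against 41.0 to 41.2).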

How the results depend on the processing

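Of 815 values recomputed for the 46 members under 18 alternatives, 783 kept their direction and side of the threshold, and 39 members did so in every one. The 6 that changed sign were LRP5 with library totals only (0.011) and, with the neighbours' shift removed, LRP5 (0.45), FZD4 (0.076), LGR4 (0.0077) and APC (-0.36), and FZD9 when libraries were left out in turn (-0.0085 without knockdown replicate 3, up to 0.23); their cause was not tested. APC passed the threshold in 9 of 18 alternatives. Where only genes of at least 50 counts on average were kept, fewer genes were tested and 2-fold changes numbered 11 higher and 4 lower among members, 1443 and 1469 among all genes; without a filter on low counts 3879 genes were higher by 2-fold or more. Leaving out each library gave 26 to 28 members higher and 13 to 15 lower. Same-numbered replicates did not deviate together (r over genes from -0.031 to 0.056, 1 of 4 best with its own number), and the replicate block gave 26 members higher and 14 lower, DVL1 losing its call. Genes at under 3 counts in a group have only bounds or wide counting intervals at this depth.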
